A study of Mus musculus with 6 samples.

Results

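Messenger RNA levels of 10 matrix metalloproteinase genes (Mmp2, Mmp3, Mmp10, Mmp11, Mmp13, Mmp14, Mmp15, Mmp16, Mmp19 and Mmp24) were compared between wild-type and fluoride-resistant cells of the MC3T3-E1 line, a mouse osteoblast-like cell line. The members were taken by gene symbol from a count table of 54433 genes, and all 10 were found in it. The control group (WT) held 3 libraries of wild-type cells in DMEM. The other group (FR) held 3 libraries of cells resistant to 30 ppm fluoride, labelled as kept under a 30 ppm gradient, while the protocol speaks of a 10 ppm gradient that lasted until proliferation was normal. Resistance and the presence of fluoride are therefore not separated by the groups. The labels speak of several clones that were adapted but not of which clone or culture gave each FR library, so p-values measure only the spread between these libraries.

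Matrix metalloproteinases are zinc-dependent enzymes that cut proteins of the extracellular matrix. They are made as inactive precursors, in which a propeptide blocks the active site until it is removed, and they are held in check by the tissue inhibitors of metalloproteinases (TIMPs). In bone, MMP13 is known as a collagenase of osteoblasts and hypertrophic cartilage, and MMP14, a membrane-anchored enzyme, cuts collagen at the cell surface and activates the precursor of the gelatinase MMP2 with TIMP2 as a bridge. MMP15, MMP16 and MMP24 are other membrane-type enzymes, MMP3 and MMP10 are stromelysins, and MMP11 is a stromelysin-like enzyme that is activated inside the cell by furin.

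Promoter sequences from RefSeq (GRCm38.p6) were at hand for 7 of the 10 members, and Mmp2, Mmp16 and Mmp19 had no entry. The 120 bases before the transcription start are shown for the 3 members of the MMP gene cluster on chromosome 9, all of which had few counts. They are also shown for Mmp14, the most abundant member. Mmp11, Mmp15 and Mmp24 are not shown. Capitals mark the AP-1 motif TGANTCA, which reads the same on both strands, and the RUNX core TGTGGT, here on the other strand as ACCACA. The windows are chr9:7272394-7272513 (Mmp13), chr9:7445702-7445821 (Mmp3), chr9:7502222-7502341 (Mmp10) and chr14:54431478-54431597 (Mmp14), each on the plus strand.
Mmp13: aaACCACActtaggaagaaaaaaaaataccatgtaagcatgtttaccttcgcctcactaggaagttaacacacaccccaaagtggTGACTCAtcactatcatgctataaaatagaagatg
Mmp3: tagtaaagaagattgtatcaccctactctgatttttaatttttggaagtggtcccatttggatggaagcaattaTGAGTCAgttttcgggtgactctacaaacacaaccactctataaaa
Mmp10: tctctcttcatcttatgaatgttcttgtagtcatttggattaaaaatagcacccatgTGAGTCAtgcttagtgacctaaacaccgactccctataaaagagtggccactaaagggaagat
Mmp14: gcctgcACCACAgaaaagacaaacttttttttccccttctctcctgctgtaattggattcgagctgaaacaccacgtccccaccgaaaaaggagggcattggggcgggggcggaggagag
In the full window of 300 bases (250 before the start and 50 after), the AP-1 motif was present in 3 of the 7 members, Mmp13, Mmp3 and Mmp10, where it began 35, 46 and 63 bases before the start. It was present in 7.81% of all 32851 promoters of this length. The RUNX core was present in Mmp13 and Mmp14, beginning 118 and 114 bases before the start, and in 16.8% of all promoters. Mmp11, Mmp15 and Mmp24 held neither motif. Of these, Mmp15 and Mmp24 also had few counts, while Mmp11 had 609 to 838 counts per library. The AP-1 motif was thus found only in members with few counts, though not in all of them. The RUNX core was found in Mmp13, with few counts, and in the abundant Mmp14. Since Mmp2, Mmp16 and Mmp19 could not be searched, a relation between motif and level was not tested. The 2 motifs do not overlap in these windows, and a match is only a description of the letters.

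The 6 libraries summed to between 19246119 and 27140662 expected counts, and the limit set by a count of 3 per library was 0.11 to 0.156 CPM (CPM is the count relative to the library total, scaled with TMM factors), for counting error only. Osteoblast markers were incomplete in both groups. The 10 markers summed to between 15656.8 and 15957.8 CPM in WT and between 4159.8 and 4207.1 CPM in FR, nearly all from Col1a2, Col1a1 and Spp1, while Ibsp was at 0 in every library and the defining genes Sp7, Alpl and Bglap had at most 8, 2 and 3 counts in any library. Runx2 stood at 69.8 ± 1.1 CPM in WT and 57.2 ± 0.689 in FR (SD over n = 3 libraries each). Dmp1 stood at 7.63 ± 0.768 CPM in WT and 0.572 ± 0.253 in FR, and Phex at 7.14 ± 0.0658 and 3.84 ± 0.493 (SD over n = 3 libraries each). Of the 10 markers 6 were tested, and all 6 fell (edgeR adjusted p under 0.05), beside 35.5% of all tested genes.

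Of the 10 members, 6 passed the filter on low counts and 4 (Mmp3, Mmp10, Mmp15 and Mmp24) did not. Of the 6 tested, Mmp2, Mmp14 and Mmp16 fell in FR, Mmp19 rose slightly, and Mmp11 and Mmp13 did not pass the test. Thus 4 of 6 were called by the edgeR quasi-likelihood test (adjusted p under 0.05), beside 70.1% of all 14889 genes tested; 35.5% of all genes were called lower and 34.6% higher, so the share of members called was near that of all genes. The median log2 fold change (FR over WT) of the 6 was −0.17, beside 0.00 over all tested genes. At least a 2-fold fall was found for Mmp2 and Mmp16, beside 11.4% of all genes, and a rise of that size for none of the 6, beside 7.4%.

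Mmp14 (ENSMUSG00000000957) was the most abundant member. It stood at 508.5, 495.0 and 485.3 CPM in WT and at 380.2, 398.9 and 393.2 CPM in FR. The groups did not overlap, and the mean fell from 496.3 ± 11.7 to 390.8 ± 9.55 CPM (SD over n = 3 libraries each), a 1.27-fold difference (log2 fold change −0.34 ± 0.03 SE, edgeR adjusted p = 1.94e-12). These values come from bulk RNA, where fewer cells that express a gene and less RNA per cell cannot be told apart. Expected counts of Mmp14 were not whole numbers in any of the 6 libraries, so some of its reads were divided between genes. The part of this division in its fall was not tested.

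Mmp2 (ENSMUSG00000031740), which encodes the gelatinase whose precursor MMP14 activates, stood at 429.8, 422.1 and 441.3 CPM in WT. In FR it stood at 165.0, 167.2 and 168.9 CPM. All FR libraries lay far below all WT libraries, and the log2 fold change was −1.37 ± 0.03 SE, a 2.58-fold difference (edgeR adjusted p = 3.09e-26).

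Mmp16 (ENSMUSG00000028226), a membrane-type enzyme related to MMP14, had the largest change among the members. Its level was 87.1, 89.1 and 92.3 CPM in WT and 13.5, 15.2 and 12.8 CPM in FR. It fell 6.44-fold (log2 fold change −2.69 ± 0.05 SE, edgeR adjusted p = 4.13e-26), so the 2 membrane-type genes that were expressed fell to different degrees. The remaining membrane-type genes were hardly detected. Mmp15 (ENSMUSG00000031790) gave 2, 0 and 1 counts in the WT libraries, against 2, 4 and 1 in FR. Mmp24 (ENSMUSG00000027612) had 3.12, 3.1 and 3.11 expected counts in WT and 2.08, 1.04 and 0 in FR. Mmp24 overlaps BC029722 on the opposite strand in the GENCODE annotation of GRCm38, a gene with 598.92 to 823.88 expected counts per library, and the labels do not say that strand was kept, so its few counts cannot be assigned with certainty.

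Mmp11 (ENSMUSG00000000901) was at the same level in both groups within the spread of the libraries. It stood at 30.7, 29.7 and 30.9 CPM in WT and at 31.6, 28.5 and 31.2 CPM in FR, so the groups overlapped. The log2 fold change was 0.00 with a 95% interval from −0.11 to 0.11 (edgeR adjusted p = 0.955). The interval bounds the change but does not show that there was none.

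Mmp19 (ENSMUSG00000025355), a secreted enzyme, was at 17.6, 16.3 and 17.1 CPM in WT and at 21.1, 18.9 and 19.8 CPM in FR. The groups did not overlap, and the gene rose 1.17-fold (log2 fold change 0.22 ± 0.07 SE, edgeR adjusted p = 0.00673). This call ended without WT replicate 2 (adjusted p = 0.0513) and without FR replicate 1 (adjusted p = 0.0502), and over all alternatives the adjusted p ran from 0.00599 to 0.0513. In the same annotation Mmp19 overlaps Tmem198b on the opposite strand, a gene picked out here after its values were seen. Tmem198b fell from 22.7 ± 2.01 to 11.2 ± 0.24 CPM (SD over n = 3 libraries each; a log2 fold change of −1.03 ± 0.08 SE, edgeR adjusted p = 3.06e-12). Expected counts of Mmp19 were not whole numbers in any of the 6 libraries, so some of its reads were divided between genes, and the part of this division in the small rise was not tested.

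**Figure D1:**
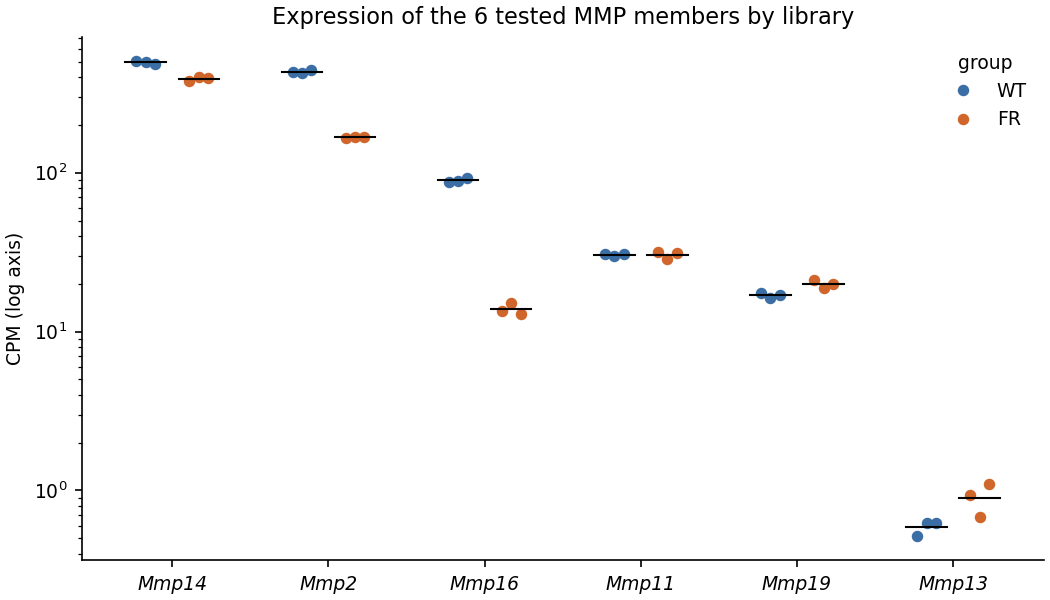
CPM on a log axis for the 6 tested members in each of the 3 WT and 3 FR libraries (points), with the mean of each group (line). Mmp2 and Mmp16 lie clearly lower in FR, Mmp14 moderately lower, Mmp11 level, and Mmp13 is around or below 1 CPM throughout.

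Mmp13 (ENSMUSG00000050578), the collagenase of osteoblasts, was at a low level. It gave 14, 16 and 16 counts in the WT libraries, against 18, 17 and 23 in FR. After scaling to depth this was 0.586 ± 0.0632 CPM in WT and 0.9 ± 0.206 CPM in FR (SD over n = 3 libraries each). The CPM values did not overlap, as was the case for 5 of the 6 tested members and for 72.4% of all genes (3 members lower in FR, beside 36.6% of all genes, and 2 higher, beside 35.7%), but the log2 fold change of 0.60 ± 0.35 SE did not pass the test (95% interval −0.08 to 1.29, edgeR adjusted p = 0.127). The interval holds both no change and a rise of 2-fold, and neither is set aside by these counts.

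The stromelysin genes Mmp3 and Mmp10 were at or near the detection limit. Mmp3 (ENSMUSG00000043613) gave 7, 3 and 4 counts in the WT libraries, against 1, 4 and 2 in FR, and the groups overlapped. Mmp10 (ENSMUSG00000047562) gave 0, 1 and 1 counts in the WT libraries and 0 in each FR library. Neither was tested, and no fold is given for them.

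**Figure D2:**
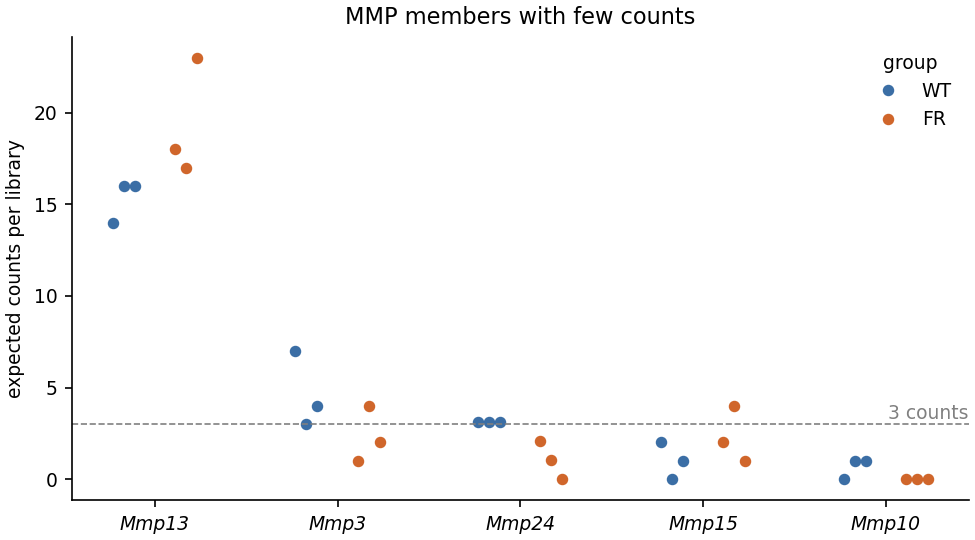
Expected counts per library for the 5 members with few counts, in WT and FR (points), with a dashed line at 3 counts. Mmp13 lies between 14 and 23 counts, and no library exceeds 7 counts for Mmp3, Mmp24, Mmp15 or Mmp10.

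Mmp13, Mmp3 and Mmp10 lie in a row of 10 MMP genes on chromosome 9, in the order Mmp13, Mmp12, Mmp1b, Mmp3, Mmp1a, Mmp10, Mmp8, Mmp27, Mmp20 and Mmp7 (RefSeq gene order of GRCm38.p6). The whole row gave few counts. Its genes summed to 33, 28 and 29 counts in the WT libraries, against 22, 27 and 25 in FR, and only Mmp13 passed the filter. Beside the row only genes that passed this filter were read, so their being expressed is not a result. Dcun1d5, next to Mmp13, had 60.7 ± 3.24 CPM in WT and 60.1 ± 1.73 in FR, and Tmem123, beyond Mmp7, had 128.0 ± 3.49 and 142.8 ± 1.55 CPM (SD over n = 3 libraries each).

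Levels of different genes were compared per length, as CPM per kilobase of the deposited gene length. Among all 23 MMP genes in the table, the order in WT was Mmp14 (191.2 ± 4.49 CPM per kilobase), Mmp2 (140.0 ± 3.13), Mmp16 (17.9 ± 0.523), Mmp11 (13.3 ± 0.284) and Mmp19 (5.00 ± 0.182; SD over n = 3 libraries each). In FR the order was Mmp14 (150.5 ± 3.68), Mmp2 (54.3 ± 0.64), Mmp11 (13.3 ± 0.741), Mmp19 (5.86 ± 0.324) and Mmp16 (2.76 ± 0.253), so Mmp16 moved from the third place to the fifth. The ranges of neighbouring genes did not overlap in either group down to Mmp13, in the eighth place, and Mmp13 stood above the next gene, Mmp23. Below that, nearly all neighbours overlapped. Set among all tested genes by level per length, Mmp14 was at the 97.5th percentile in WT and the 96.7th in FR, Mmp2 at the 96.5th and the 90.2th, and Mmp16 at the 69.6th and the 32.0th.

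The summed level of the 10 members was 371.9, 363.7 and 367.6 CPM per kilobase in WT and 223.2, 229.4 and 228.8 in FR, and the FR mean was 61.8% of the WT mean. Mmp14 and Mmp2 together made up most of this sum in every library. The share of Mmp14 was 50.9% to 52.7% in WT and 65.6% to 67.0% in FR. The share of Mmp2 was 37.5% to 39.0% in WT and 23.7% to 24.0% in FR. Mmp16 held 4.68% to 5.01% of the sum in WT and 1.11% to 1.32% in FR, while Mmp11 held 3.57% to 3.67% and 5.43% to 6.19%.

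**Figure D3:**
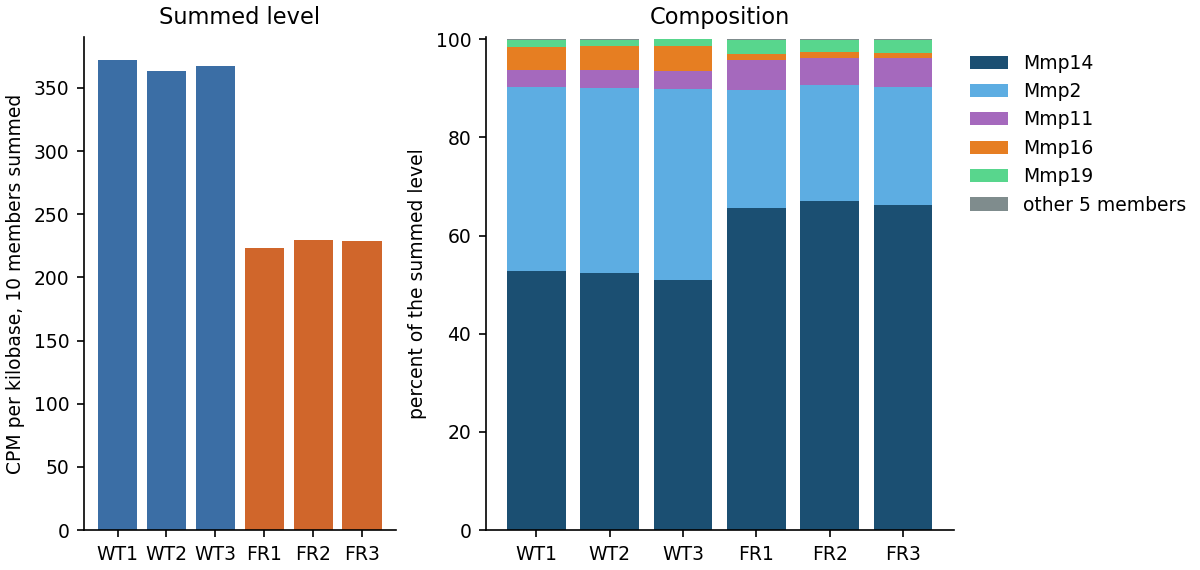
Left, the level of the 10 members summed in each library (CPM per kilobase of gene length), and right, the percent of that sum held by each gene. The sum is lower in the 3 FR libraries (223.2 to 229.4 against 363.7 to 371.9), and Mmp14 takes a larger share of it there.

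Of the 13 other MMP genes, only Mmp9 and Mmp28 were expressed enough to be tested. Both fell, beside 35.5% of all tested genes called lower. Mmp9, the second gelatinase gene and abundant in osteoclasts, fell from 10.3 ± 0.39 to 2.57 ± 0.336 CPM (SD over n = 3 libraries each; a log2 fold change of −2.01 ± 0.13 SE, edgeR adjusted p = 5.04e-14). Mmp28, which encodes epilysin, fell from 11.2 ± 0.622 to 3.85 ± 0.603 CPM (SD over n = 3 libraries each; a log2 fold change of −1.55 ± 0.12 SE, edgeR adjusted p = 5.05e-12). Mmp28 overlaps 1700020L24Rik on the opposite strand, a gene with 20.02 to 52.07 expected counts per library that fell too (log2 fold change −0.77 ± 0.27 SE, edgeR adjusted p = 0.0115). The counts of Mmp28 were not whole in any of the 6 libraries, so some of its reads were divided between genes, and the part of this in its fall was not tested. The remaining 11 had at most 11.32 expected counts in any library, and Mmp7 and Mmp8 had none. Since Mmp9 and several others are also made by osteoclasts and macrophages, markers of these cells were read beside them. Of 6 osteoclast markers only Ctsk had a mean of at least 10 counts, Calcr was at 0, and the 6 summed to 7.1 to 9.23 CPM in WT and 2.08 to 3.84 in FR. Of 7 macrophage markers 3 had such a mean (Cd14, Csf1r and Lyz2). The defining markers Ptprc, Adgre1, Itgam and Mrc1 had at most 5, 1, 1 and 3 counts in any library. The sum of the 7 was 18.4 to 20.6 CPM in WT and 18.5 to 23.5 in FR. Within this sum the genes moved in opposite directions. Csf1r, the receptor gene for the macrophage growth factor CSF1, rose from 0.596 ± 0.204 to 7.13 ± 0.645 CPM (SD over n = 3 libraries each; edgeR adjusted p = 3.82e-15). Lyz2, a lysozyme gene, fell from 6.15 ± 0.535 to 1.54 ± 0.196 CPM (edgeR adjusted p = 2.16e-11), and Cd14 did not pass (edgeR adjusted p = 0.399). The part of such cells in the MMP values was not tested.

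Markers of other cell types were summed over 6 genes each. In these sums, endothelial markers stood at 3.34 to 3.82 CPM in WT and 2.12 to 2.44 in FR, epithelial markers at 0.858 to 1.36 and 0.614 to 1.37, adipocyte markers at 0.507 to 1.09 and 0.999 to 1.65, and skeletal muscle markers at 1.87 to 2.1 and 6.38 to 7.15. The muscle sum came mostly from Des, the gene for the filament protein desmin, which rose from 1.77 ± 0.138 to 6.26 ± 0.409 CPM (SD over n = 3 libraries each; edgeR adjusted p = 4.49e-11), while Myod1 and Pax7 were at 0. Chondrocyte markers summed to 70.9 to 73.9 CPM in WT and 48.4 to 51.5 in FR, mostly from Sox9, with Acan and Col9a1 at 0.

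Among 10 genes listed with the MMP inhibitors, 5 were tested, of which 4 fell and 1 rose. These stand beside 35.5% and 34.6% of all tested genes (median log2 fold change −0.86, beside 0.00). Timp2, which binds both MMP14 and the precursor of MMP2, was the most abundant, and it fell from 1038.4 ± 4.3 to 630.4 ± 10.3 CPM (SD over n = 3 libraries each; a log2 fold change of −0.72 ± 0.02 SE). Timp1 fell from 84.0 ± 5.15 to 34.2 ± 0.889 CPM, and Timp3, whose product binds to the matrix, fell from 403.1 ± 12.4 to 20.2 ± 1.04 CPM (SD over n = 3 libraries each). Reck, a membrane-anchored inhibitor, fell from 12.3 ± 0.727 to 6.8 ± 0.951 CPM (SD over n = 3 libraries each; edgeR adjusted p = 3.88e-08). Timp4 had 0 counts in WT and 0, 3 and 3 in FR and was not tested. The 1 gene that rose was Spock2, a proteoglycan gene whose product is not itself established as an MMP inhibitor. The tested TIMP genes and Reck all fell. Spock2 was named after its values were seen. It had 10, 4 and 4 counts in the WT libraries, against 13, 12 and 15 in FR (edgeR adjusted p = 0.00938). This call ended without WT replicate 2 and without WT replicate 3. Summed per length, Timp1 to Timp4 stood at 460.6, 468.3 and 469.6 CPM per kilobase in WT and at 212.6, 217.1 and 216.3 in FR, 46.2% of the WT mean.

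**Figure D4:**
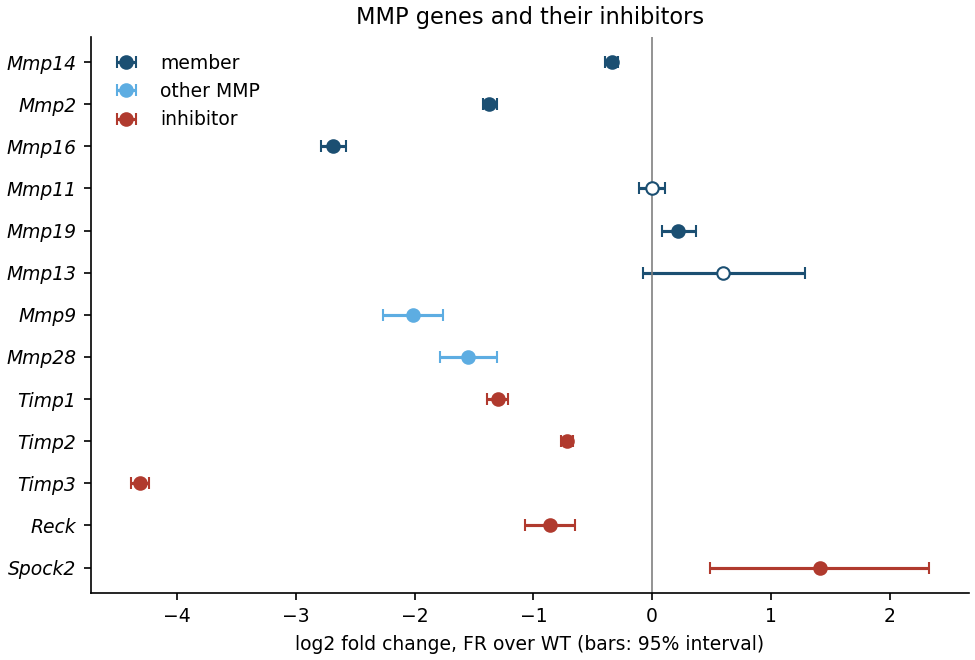
Log2 fold change of FR over WT with its 95% interval for the 6 tested members, the 2 other tested MMP genes and the 5 tested genes of the inhibitor list. Filled points passed the test and open points (Mmp11 and Mmp13) did not. Changes run from −4.31 for Timp3 to 1.41 for Spock2, and Mmp14 lies much closer to 0 than Mmp2 and Mmp16.

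Because MMP14, TIMP2 and the MMP2 precursor are known to act as a complex, the levels of their genes were set against each other within each library, as ratios of CPM per kilobase. The ratio of Mmp2 to Mmp14 was 0.713, 0.719 and 0.767 in WT and 0.366, 0.354 and 0.362 in FR. The ratio of Mmp2 to Timp2 was 0.497, 0.49 and 0.514 in WT and 0.32, 0.314 and 0.323 in FR. In contrast, the ratio of Mmp14 to Timp2 was lower in WT (0.697, 0.681 and 0.671) than in FR (0.876, 0.889 and 0.892). Thus Mmp14 mRNA was lower in FR but higher relative to Timp2. The ratios were not among the planned comparisons, and those with Timp3 and Mmp16 go beyond the genes of this complex. For Timp3 the shift was larger, with Mmp14 to Timp3 at 2.13 to 2.31 in WT and 34.3 to 36.4 in FR. This mostly restates the 19.9-fold fall of Timp3, and no more is read from it. The groups did not overlap for any of these ratios nor for Mmp16 to Mmp14 (0.0888 to 0.0986 in WT and 0.0168 to 0.0198 in FR). Each of the 5 had a two-sided exact permutation p of 0.1, also after adjustment over the 5, which is the smallest that 3 against 3 libraries allow.

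**Figure D5:**
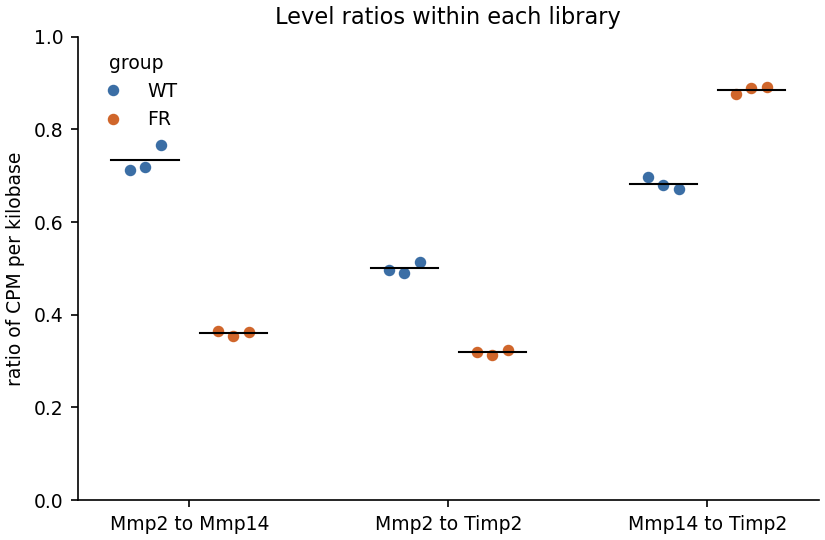
Ratios of CPM per kilobase between Mmp2, Mmp14 and Timp2 in each WT and FR library (points) with the group mean (line). Both ratios with Mmp2 on top are lower in FR, and the ratio of Mmp14 to Timp2 is higher, from a mean of 0.683 in WT to 0.885 in FR.

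Of 18 genes for MMP activation and cell-surface partners, 15 were tested, of which 6 rose and 9 fell, so that all 15 were called, beside 70.1% of all tested genes (median log2 fold change −0.15). Furin, the protease that removes the propeptides of MMP14 and MMP11, rose slightly from 98.1 ± 3.53 to 106.6 ± 2.58 CPM (SD over n = 3 libraries each; edgeR adjusted p = 0.00326), and this call ended without WT replicate 1 (adjusted p = 0.0595; range over all alternatives 0.00159 to 0.0595). Bsg, which encodes the MMP inducer basigin, rose from 628.9 ± 2.06 to 743.9 ± 16.2 CPM, and Plaur, the urokinase receptor gene, rose from 23.2 ± 2.51 to 40.0 ± 1.38 CPM (SD over n = 3 libraries each). Lrp1, an endocytic receptor that clears MMPs, fell from 2723.4 ± 84.0 to 842.2 ± 10.5 CPM, and Cd44, a hyaluronan receptor, fell from 257.2 ± 1.69 to 153.6 ± 2.5 CPM (SD over n = 3 libraries each). Itgb3, an integrin subunit gene, fell from 162, 181 and 170 counts in the WT libraries to 3, 1 and 1 in FR (edgeR adjusted p = 7.01e-17).

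Of 24 genes for matrix proteins that MMPs cut, 19 were tested, of which 17 fell and 2 rose, beside 35.5% and 34.6% of all tested genes (median log2 fold change −1.41). A fall of at least 2-fold was found for 13 of the 19, beside 11.4% of all genes. The list was chosen with earlier results of these data known, so these counts are a description and no excess is read from them. Col1a1 and Col5a2, both fibrillar collagen genes, had log2 fold changes of −2.99 ± 0.02 and −2.03 ± 0.03 SE. Postn, a periostin gene, fell by 7.52 on the log2 scale, and Nid1, for the basement membrane protein nidogen, by 2.61. Tnc, for tenascin C, stood higher in FR, at 102.9 ± 2.35 against 72.7 ± 1.18 CPM (SD over n = 3 libraries each), and passed the test.

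Of 16 AP-1, RUNX and ETS transcription factor genes, families with known binding sites in MMP promoters, 4 rose and 9 fell, and the test was not passed by 3 (median over all 16, −0.34 on the log2 scale). The 13 called of 16 stand beside 70.1% of all tested genes, and no more is read from that count. Fosl2, an AP-1 gene, rose from 187.5 ± 2.83 to 379.8 ± 3.54 CPM (SD over n = 3 libraries each; a log2 fold change of 1.02 ± 0.03 SE). Runx3 fell from 23.3 ± 0.709 to 1.74 ± 0.69 CPM, and the ETS genes Etv1 and Etv5 fell from 16.3 ± 0.071 to 3.18 ± 0.232 and from 35.1 ± 2.36 to 8.91 ± 0.153 CPM (SD over n = 3 libraries each). Whether these factors bear on the MMP genes was not tested.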

How the data were processed

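The 6 libraries were poly(A)-selected total RNA. The authors deposited expected counts per gene, with gene lengths; the submitters' processing notes name fastp, HISAT, RSEM and GRCm39, without versions or roles. Of the deposited values, 85.9% were whole numbers. The labels do not state that strand was kept. Expected counts were rounded and tested with edgeR 4.0.16 in R 4.3.3 (filterByExpr, TMM factors, robust quasi-likelihood F test, Benjamini-Hochberg adjustment over all 14889 genes tested, threshold 0.05). The 733 rows without a gene name were kept, and 2 columns of group means were not used. A standard error is the absolute log2 fold change over the square root of F, and 95% intervals are normal. Summaries were made in Python 3.11.15 with pandas 2.3.3, scipy 1.17.1 and matplotlib 3.10.9.

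The members and gene lists were chosen with earlier results of these data known, so a count within a list is not read as an excess over all genes. All 10 members were named. Of each other list, up to 4 called genes with the largest change and a mean of at least 1 CPM were named. The largest opposite change was added where all 4 shared a sign. Timp1 to Timp4, Reck, Bsg and Furin were named whatever their values. The markers highest in CPM could be named for each marker list. Other markers, among them those called defining for osteoblasts and macrophages, were named outside this rule, with their values known. Alternatives were other scalings, filters, DESeq2 1.42.0, limma-voom (limma 3.58.1), a replicate block and leaving out each library. On simulated data the edgeR step recovered 64.6% of the genes given a 1.2-fold change, 82% of those with 1.5-fold, 94% of those with 2-fold and 100% of those with 4-fold. It called 0.0622% of 14460 unchanged genes. The simulation gave every gene the same coefficient of variation between libraries (3.25%) and changed only 200 genes. In the data 70.1% of genes were called, so these rates hold for the simulated setting and not for this comparison. Promoter sequences are from RefSeq (GRCm38.p6), a build other than that of the counts, and were joined by gene symbol.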

Additional observations from a re-analysis of the deposited data

How the results depend on the processing

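For 27 of the named genes, 399 of 404 values under alternatives kept their direction and their side of the threshold. The 27 leave out Spock2, whose call ended as told above, and the overlapping and neighbouring genes. They also leave out the cell type markers other than Col1a1, among them Csf1r, Lyz2 and Des, and the genes that were not tested. Among the 404 values the call ended in 3, Mmp19 without WT replicate 2 or FR replicate 1 and Furin without WT replicate 1. The sign turned in 2, both of Mmp11, which passed the test in none: its log2 fold change ran from −0.04 to 0.04 when each library was left out, with 0.04 without FR replicate 2 and 0.00 without WT replicate 3. The number of members called higher in FR ran from 0 to 1 when each library was left out, and the number called lower was 3 in every alternative run. The number of genes of the inhibitor list called higher was 0 with a filter at a mean of 1 CPM, under which Spock2 was not tested. It ran from 0 to 1 when each library was left out. With DESeq2, 9518 genes were called in all, and with no filter 10931, beside 10440. Replicate numbers gave no sign of pairing. The correlation of deviations from group means was −0.028 to −0.004 for same-numbered libraries and −0.02 to 0.037 for the others. With 3 libraries per group this cannot show that there was no pairing. With the replicate block 5070 genes were called higher and 5222 lower in FR, and 1 member was called higher and 3 lower. Depth limits Mmp3, Mmp10, Mmp13, Mmp15 and Mmp24, whose few counts leave wide errors.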

Other observations

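Beside the MMP gene row on chromosome 9, the next tested genes differed among themselves. Dync2h1 fell from 27.8 ± 1.16 to 19.1 ± 1.07 CPM on the Mmp13 side (SD over n = 3 libraries each; edgeR adjusted p = 1.89e-08), where Dcun1d5 did not pass (edgeR adjusted p = 0.765). On the Mmp7 side, Birc2, an inhibitor of apoptosis gene, rose from 23.8 ± 1.59 to 28.8 ± 2.46 CPM (SD over n = 3 libraries each; edgeR adjusted p = 0.000824), and Tmem123 rose by 0.16 on the log2 scale.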
